A study of Rattus norvegicus and Mus musculus with 3 samples.

Results

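Metallothioneins are small proteins in which cysteines hold zinc and copper ions. The genes described here are Mt1, Mt3 and the second metallothionein, which is named Mt2A in both rat tables and Mt2 in the mouse table. They were taken by name from the first column of each table, which gave 3 of 30438 listed genes in each rat and 3 of 34714 in the mouse. The family was selected on earlier results of these data, which held the values of Mt2A in the rats and of Mt1 in the mouse and the Sham rat, so its levels and ratios are a description. All 3 libraries were made from hippocampus of animals with the genotype WT. The mouse was wild type, 6 months old and from the 3xTg-AD line, a model of Alzheimer's disease whose transgenic members carry human transgenes. The rats were 3 to 4 months old, with 1 library in the Sham group and 1 in the 2VO group. The name 2VO usually stands for the closing of both carotid arteries, which reduces cerebral blood flow, and a Sham animal has surgery without that step. Transgenic mice were not analysed here, and the sources used here do not say whether a library pools several animals.

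In brain Mt1 and Mt2 are made mainly by astrocytes and other non-neuronal cells. Zinc induces them through the transcription factor MTF1, which binds metal response elements before the genes, and glucocorticoids and inflammatory signals that act through STAT3 induce them as well. Mt3 is the brain form, also called growth inhibitory factor. It is found in astrocytes and in neurons that store zinc in their synaptic vesicles, and it responds little to metals. In bulk tissue, fewer cells of a type and less RNA per cell cannot be told apart.

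The coding sequences of the mouse genes are shown because the repeated cysteine codons define the family and because the genes resemble each other. They were read from GENCODE M21 transcripts from the start codon to the stop codon, 5′ to 3′, with cysteine codons in capitals.
Mt1: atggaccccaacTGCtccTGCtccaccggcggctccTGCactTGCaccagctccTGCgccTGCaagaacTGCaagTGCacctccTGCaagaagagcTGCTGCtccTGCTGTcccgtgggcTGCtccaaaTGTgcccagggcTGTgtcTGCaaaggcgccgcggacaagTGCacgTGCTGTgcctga
Mt2: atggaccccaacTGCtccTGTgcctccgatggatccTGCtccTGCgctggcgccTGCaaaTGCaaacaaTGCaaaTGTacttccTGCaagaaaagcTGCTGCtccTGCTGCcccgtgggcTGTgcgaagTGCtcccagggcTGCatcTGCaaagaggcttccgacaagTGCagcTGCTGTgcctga
Mt3: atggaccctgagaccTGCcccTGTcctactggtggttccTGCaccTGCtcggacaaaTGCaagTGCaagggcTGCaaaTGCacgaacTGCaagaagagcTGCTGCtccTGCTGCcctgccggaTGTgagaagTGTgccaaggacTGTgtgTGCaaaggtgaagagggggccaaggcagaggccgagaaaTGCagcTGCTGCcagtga
Each sequence held 20 cysteine codons, out of 61 codons before the stop in Mt1 and Mt2 and out of 68 in Mt3. In a global alignment 79.6% of the columns were identical between Mt1 and Mt2. The share was 65.2% between Mt1 and Mt3 and 67.6% between Mt2 and Mt3, where the longer Mt3 opened gaps. The longest run of identical bases was 20 between Mt1 and Mt2, 27 between Mt1 and Mt3 and 20 between Mt2 and Mt3. The sources used here give no read length.

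The 250 bases before the start of each rat gene are shown because they hold matches to the core of the metal response element. They come from RefSeq's promoters for the assembly GRCr8, which is not the build mRatBN7.2 named by the submitters, and all 3 genes were matched. Each is printed 5′ to 3′ along the gene, and capitals mark the core of the metal response element, searched on both strands as TGCACNC and TGCGCNC. Mt1 is at chr19:10832976-10833225, Mt2A at chr19:10838709-10838958 and Mt3 at chr19:10856081-10856330, all on the minus strand of GRCr8.
Mt1: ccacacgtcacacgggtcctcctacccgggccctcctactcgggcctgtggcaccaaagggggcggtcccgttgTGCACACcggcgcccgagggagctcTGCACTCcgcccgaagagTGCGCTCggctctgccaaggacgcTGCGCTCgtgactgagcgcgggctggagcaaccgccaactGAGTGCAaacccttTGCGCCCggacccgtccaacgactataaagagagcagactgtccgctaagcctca
Mt2A: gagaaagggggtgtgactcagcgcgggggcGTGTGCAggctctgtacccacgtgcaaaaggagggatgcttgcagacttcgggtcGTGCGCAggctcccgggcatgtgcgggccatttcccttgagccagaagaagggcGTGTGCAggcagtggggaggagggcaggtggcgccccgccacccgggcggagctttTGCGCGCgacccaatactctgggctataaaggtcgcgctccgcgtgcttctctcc
Mt3: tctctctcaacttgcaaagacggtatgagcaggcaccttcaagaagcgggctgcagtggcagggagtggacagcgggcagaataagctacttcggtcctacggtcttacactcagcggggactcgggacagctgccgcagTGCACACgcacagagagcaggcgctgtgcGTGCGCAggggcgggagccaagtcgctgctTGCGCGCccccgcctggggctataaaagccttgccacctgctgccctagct
The core was found 6 times before Mt1, 4 times before Mt2A and 3 times before Mt3. Among 27457 rat promoters of the same length 21.2% held at least 1 core, 1.25% at least 3, 0.277% at least 4 and 0.0219% at least 6. All of the genes had a TATA box, TATAAA, which was in 13.1% of promoters. A core of the form TGCGCNC ended at position -49 from the start in Mt1 and Mt2A and at -45 in Mt3. The core of the antioxidant response element, TGACNNNGC, was found before Mt1 and Mt2A and not before Mt3, against 10.2% of promoters. The E-box CACGTG, a site bound by USF factors, was found before Mt2A, against 5.79% of promoters. The GC box GGGCGG was present before each gene, against 32.4% of promoters, and 1 of its copies before Mt1 shares a base with a metal response core. The single hexamer AGAACA of the glucocorticoid response element was in 17.1% of promoters and in none of these windows. A match is a description of the letters in this window and not a binding site.

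**Figure D1:**
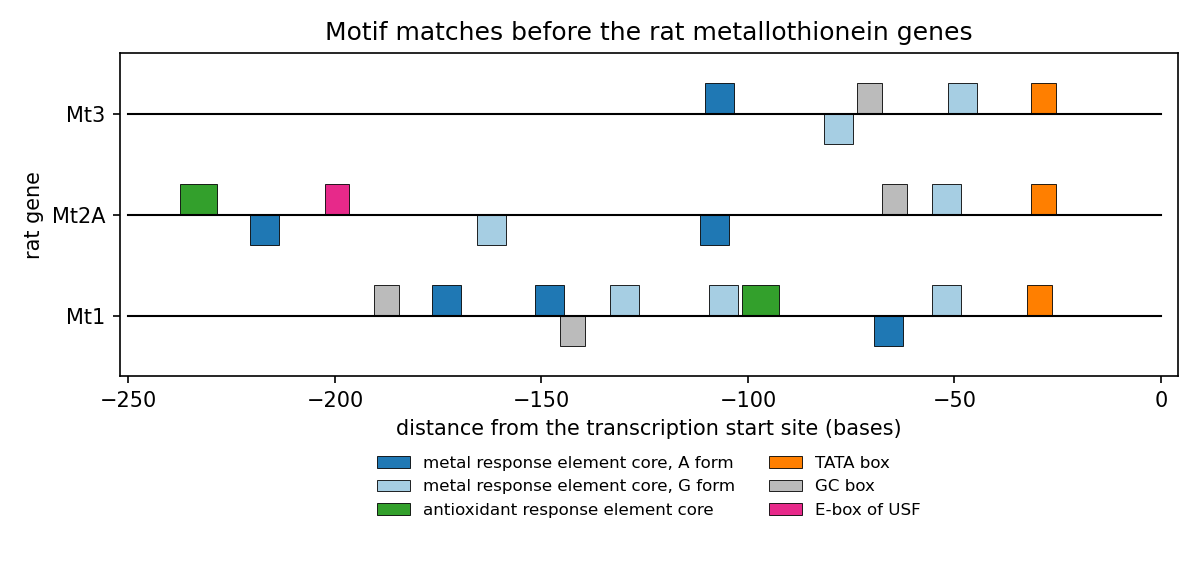
Motif matches in the 250 bases before the rat genes Mt1, Mt2A and Mt3, by distance from the transcription start site in bases. Boxes above a line are matches on the gene's strand and boxes below it on the other strand. Mt1 has 6 cores of the metal response element, Mt2A 4 and Mt3 3, and each gene has 1 TATA box.

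All levels are the authors' deposited normalized values, called units here because their unit is not stated. Each table was normalized on its own, sequencing depth is unknown, and each group holds 1 library, so no value has a replicate error and no test was run. Between 12767 and 13586 genes per table reached 1 unit. Of 9 marker genes of the hippocampal subfields 8 reached a mean of 1 unit in the rats, and the 9 summed to 420 units in Sham, 348 in 2VO and 284 in the mouse. Of 7 choroid plexus markers 3 reached it, and the 7 summed to 3.28 units in Sham, 8.40 in 2VO and 23.0 in the mouse. All 14 astrocyte markers reached a mean of 1 unit in the rats.

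Mt3 was among the most abundant transcripts of the rat hippocampus, while Mt1 was the lowest of the 3 genes there. Mt3 stood at 533 units in the Sham rat, 378 in the 2VO rat and 190 in the mouse. It ranked at place 35 of 22338 genes above 0 in Sham, 64 of 21985 in 2VO and 147 of 24001 in the mouse. Mt3 was thus high in every library, with its top value in Sham. Mt2A was 73.4 units in Sham and 45.9 in 2VO, and Mt2 was 144 in the mouse. Their places were 823, 1508 and 228. The second metallothionein was therefore highest in the mouse and lowest in 2VO. Mt1 was 9.70 units in Sham, 11.3 in 2VO and 212 in the mouse, at places 6528, 6012 and 123. Both rats were near the middle of the genes of at least 1 unit, at percentiles 51.6 and 55.8, and the mouse was at percentile 99.04.

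**Figure D2:**
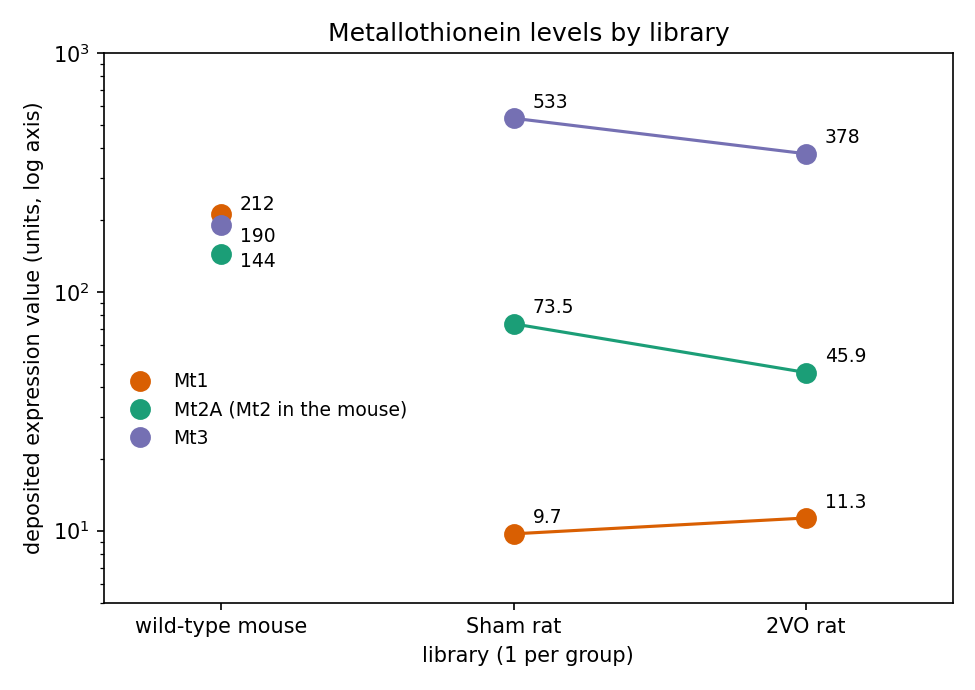
Deposited expression values of the metallothionein genes in units on a log axis, in the wild-type mouse, the Sham rat and the 2VO rat, with 1 point per library and no error bars. Lines join the 2 rats. Mt1 is the highest of the 3 genes in the mouse, at 212 units, and the lowest in both rats, at 9.70 and 11.3.

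The makeup of the family differed between the mouse and the rats more than between the rats. Of the summed level of the 3 genes, Mt3 held 86.5% in Sham, 86.9% in 2VO and 34.8% in the mouse. The second metallothionein held 11.9%, 10.5% and 26.3%, and Mt1 held 1.57%, 2.59% and 38.8%. The rat values of Mt1 are uncertain, since the counting of reads that fit several copies of the gene is not stated. The sum itself was 616 units in Sham, 436 in 2VO and 546 in the mouse, or 0.189%, 0.130% and 0.203% of all deposited values of the library. Whether the values are scaled by transcript length is not stated. For the mouse this did not alter the order, since its transcripts are 549, 511 and 536 bases long and the levels per 1000 bases would be 386 for Mt1, 355 for Mt3 and 282 for Mt2. Rat transcript lengths were not used here, so the order of the rat levels is as deposited.

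**Figure D3:**
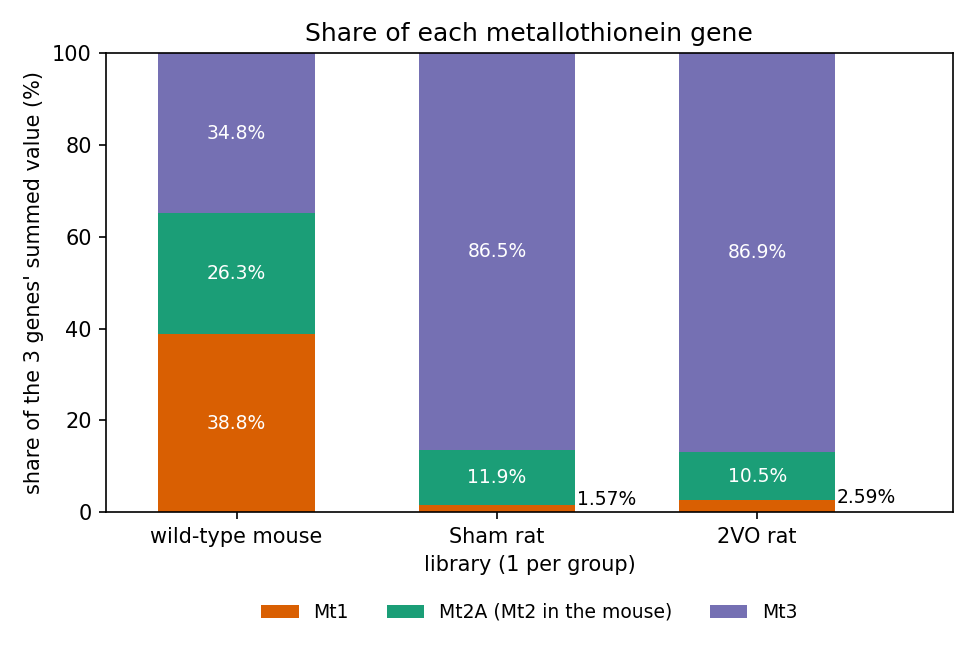
Share of each gene in the summed deposited value of Mt1, Mt2A (Mt2 in the mouse) and Mt3, in percent, with 1 bar per library. Mt3 makes up 86.5% and 86.9% in the rats and 34.8% in the mouse, where Mt1 is the largest share at 38.8%.

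The main comparison made here sets the 2VO rat beside the Sham rat. Mt2A and Mt3 were lower in the 2VO library and Mt1 was slightly higher. For Mt2A the Sham level was 1.60 times that of 2VO, a difference of -27.5 units. On the log2 scale, with 1 unit added to both values, 2VO over Sham was -0.67. Mt3 was 1.41 times as high in Sham, a difference of -154.5 units and a log2 ratio of -0.49. Mt1 was 1.17 times as high in 2VO, a difference of 1.60 units and a log2 ratio of 0.20. Mt3 thus had the largest difference in units and Mt2A the largest ratio, and Mt1 went the other way.

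Among the rats' 13550 genes whose mean reached 1 unit, the median log2 ratio was 0.04 and the SD across genes 0.24. Of the metallothioneins 1 of 3, Mt2A, was at least 1.5-fold lower in 2VO, beside 0.967% of all these genes. None of the 3 was at least 1.5-fold higher, beside 1.51% of all genes. Mt2A lay just past 1.5-fold, at 1.59-fold with 1 unit added, and Mt3 just short of it, at 1.41-fold. A ratio as low as that of Mt2A or lower was found for 85 of the 13550 genes, and one as low as that of Mt3 for 212. Among the 1329 genes whose mean reached 50 units these counts were 5 and 19. A ratio as high as that of Mt1 or higher was found for 2619 genes. Within 0.02 of a member's log2 ratio lay 718 other genes for Mt1, 7 for Mt2A and 30 for Mt3. With the libraries scaled to equal upper quartiles the split of genes past 1.5-fold went from 205 higher and 131 lower to 156 higher and 165 lower, while the log2 ratios of Mt1, Mt2A and Mt3 kept their signs and their side of 1.5-fold.

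**Figure D4:**
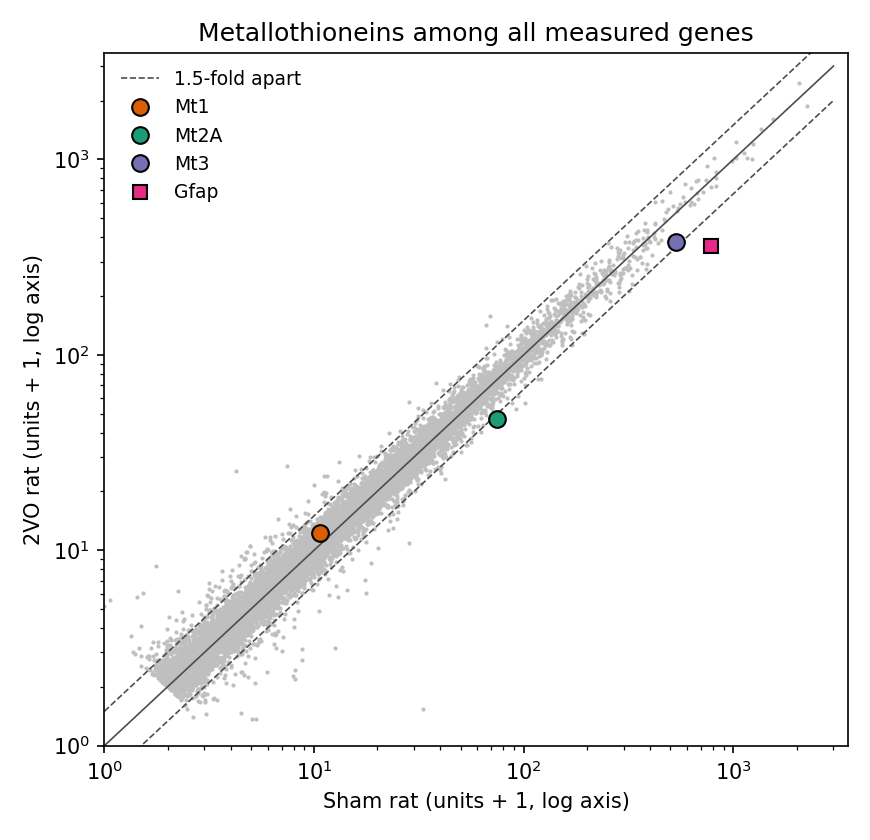
Deposited values of the 13550 genes averaging 1 unit or more in the Sham rat and the 2VO rat, with 1 unit added, on log axes. The solid line marks equal values and the dashed lines 1.5-fold. Mt2A lies just beyond the lower dashed line, Mt3 just inside it, Mt1 near the solid line, and Gfap beyond the lower line.

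Ratios within the family do not move with the scaling of a library. Mt2A was 7.57 times the level of Mt1 in Sham and 4.06 times in 2VO, and Mt3 was 7.26 times the level of Mt2A in Sham and 8.24 times in 2VO. Mt2A was thus lower in 2VO against both of the others. The sources used here do not say how reads that fit several copies were counted, and RefSeq names 6 rat loci Mt1 or Mt1 with a suffix, of which 4 are pseudogenes. Only Mt1 itself and the pseudogene Mt1m were listed in the rat tables. The rat values of Mt1 are uncertain for this reason, and the part of these copies in them was not tested.

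Most general astrocyte markers were near equal in the 2 rats, and 6 of 10 measured markers of reactive astrocytes were at least 1.5-fold lower in 2VO. Of 14 astrocyte markers 6 were above and 8 below a log2 ratio of 0, with a median of -0.03, and their summed level was 2599 units in Sham and 2298 in 2VO. Without Gfap the other 13 summed to 1821 in Sham and 1938 in 2VO, the other direction. Gfap, an intermediate filament of astrocytes, was the 1 member past 1.5-fold, at 778 units in Sham and 360 in 2VO. Of 13 reactive astrocyte markers 10 reached a mean of 1 unit, 6 of these were at least 1.5-fold lower and 0 higher, beside 0.967% and 1.51% of all genes, and the median was -0.84. Vim, Cd44, S1pr3 and Cp did not pass 1.5-fold, with log2 ratios of 0.14, -0.17, -0.39 and -0.12. With 4 units added the count was 3 and the median -0.37, and without a filter the median was -0.39. Only Gfap and Vim averaged 5 units or more, and of these Gfap alone was 1.5-fold lower. The 13 summed to 826 units in Sham and 394 in 2VO, of which Gfap made up most. No marker of either list was at 0 in a rat. Per unit of Aldoc, a glycolytic enzyme of astrocytes, the level of Mt2A was 0.243 in Sham and 0.121 in 2VO, and that of Mt3 was 1.76 and 1.00. Aldoc had the highest log2 ratio of the 14 astrocyte markers, at 0.32, so levels per unit of it fell most. Per unit of the glutamate transporter gene Slc1a2 the level of Mt2A was 0.390 in Sham and 0.246 in 2VO, and that of Mt3 was 2.83 and 2.03. Against Aqp4 the level of Mt2A was 0.843 in Sham and 0.549 in 2VO, and that of Mt3 was 6.11 and 4.52. Against Gja1 they were 0.841 and 0.519 for Mt2A, and 6.10 and 4.27 for Mt3. Per unit of Gfap the order turned: Mt2A was 0.0944 in Sham and 0.128 in 2VO, and Mt3 was 0.685 and 1.05.

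Markers of several other cell types differed between the rats, while neuronal, vascular and blood markers were near equal by their medians. The median log2 ratio was -0.10 over 6 excitatory and 0.09 over 7 inhibitory neuron markers. It was -0.05 over 6 measured endothelial and mural markers and -0.003 over 3 of blood. None of these passed 1.5-fold, which is near the share of 2.48% of all genes in either direction. Of 8 measured subfield markers 1 was at least 1.5-fold lower, beside 0.967% of all genes, with a median of -0.09. Of 9 microglial markers 3 were at least 1.5-fold lower in 2VO and 1 higher, beside 0.967% and 1.51% of all genes. The median log2 ratio of the 9 was -0.29, with sums of 199.99 units in Sham and 156.49 in 2VO. The markers past 1.5-fold were Aif1 and the complement genes C1qa and C1qc, which were lower, and P2ry12, which was higher. With 1 unit added C1qa and P2ry12 were only just past it, both at 1.51-fold. C1qc was at 1.62-fold and Aif1 at 1.71-fold. Other scalings and other added units were not tried for the markers of this paragraph. All 7 oligodendrocyte markers were above 0, with a median of 0.32 and sums of 3734 and 4659 units. None of them passed 1.5-fold, which is near the share of 2.48% of all genes in either direction. The 6 ependymal markers had a median of 0.51 and sums of 9.82 and 15.3 units, with 2 at least 1.5-fold higher, beside 1.51% of all genes. These were Tmem212, at 1.31 units in Sham and 2.72 in 2VO, and Ak7, at 0.826 and 1.76. Both are low values, and Ak7 was only just past the cut, at 1.51-fold with 1 unit added. Of the 3 measured choroid plexus markers 2 were above and 1 below 0, and 1 was at least 1.5-fold higher, beside 1.51% of all genes. That marker was Ttr, the main choroid plexus transcript, at 0.434 units in Sham and 4.75 in 2VO. It made up most of the list's rise from 3.28 to 8.40 units. Folr1 was 0.798 and 1.54, and Kcne2 went the other way, at 1.66 and 1.52. No marker of these lists was at 0 in a rat. The part of reactive astrocytes and of these cell types in the metallothionein differences was not tested.

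None of the measured zinc, copper and iron genes was 1.5-fold apart between the rats. Only 2.48% of all genes were past 1.5-fold in either direction, so these counts of 0 are near the share over all genes, and so is the count for the regulators of metallothionein transcription. Zinc exporters of the Slc30a family move zinc out of the cytosol, and 8 of 10 reached a mean of 1 unit. None of them was 1.5-fold apart, and their median log2 ratio was 0.04, beside 0.04 over all genes. Slc30a3, which loads zinc into synaptic vesicles, had the highest level, at 109 units in Sham, 97.7 in 2VO and 29.8 in the mouse. Slc30a4 was furthest from equal, at 11.8 in Sham and 13.9 in 2VO. Slc30a1, the exporter of the plasma membrane and itself a target of MTF1, was 8.62 in Sham, 9.01 in 2VO and 7.69 in the mouse. It was thus near equal in the rats.

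Zinc importers of the Slc39a family bring zinc into the cytosol. Of 14 genes 10 reached a mean of 1 unit, 3 were above and 7 below 0, none was 1.5-fold apart, and the median log2 ratio was -0.09. Slc39a7, which releases zinc from the secretory pathway, was 37.6 units in Sham and 33.1 in 2VO. Slc39a10 was 15.4 and 19.4, the largest ratio of the list. Slc39a14, an importer that inflammation induces in liver, was 7.46 in Sham, 6.41 in 2VO and 8.01 in the mouse. Slc39a12, an importer enriched in brain, was under 1 unit in the rats, at 0.475 and 0.593, and 12.6 in the mouse. Both importers named last differed little between the rats in units.

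The copper and iron genes are given in the same way. Of 16 copper handling genes 13 reached a mean of 1 unit, with a median log2 ratio of 0.08. Sod1, a superoxide dismutase that uses copper and zinc, was 108 units in Sham and 124 in 2VO. Atp7b, a copper-exporting ATPase, was furthest from equal, at 1.15 and 1.79. Of 15 iron genes 11 reached a mean of 1 unit, 9 were above 0 and 2 below, and the median was 0.12. Fth1, the heavy chain of ferritin, was 1537 units in Sham and 1616 in 2VO, and Bmp6, a signal in iron balance, was 5.92 and 7.41.

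Among the regulators of metallothionein transcription, all 10 reached a mean of 1 unit, 5 were above and 5 below 0, none was 1.5-fold apart, and the median log2 ratio was 0.01. Mtf1, the zinc sensor, was 4.51 units in Sham, 5.39 in 2VO and 4.30 in the mouse. Usf2 was the most abundant, at 40.6 in Sham and 39.9 in 2VO. Nr3c2, the mineralocorticoid receptor, which also binds glucocorticoids, was 32.8 in Sham and 27.2 in 2VO, the furthest from equal of the list.

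Genes that respond to glucocorticoids were divided between the rats. Of 24 genes 23 reached a mean of 1 unit, 12 were above and 11 below 0, and the median log2 ratio was 0.01. It was -0.13 over the 16 genes that averaged 5 units or more. At least 1.5-fold lower in 2VO were 2 genes, Lcn2, a secreted lipocalin, at 4.28 units in Sham and 0.372 in 2VO, and Cebpd, a transcription factor of the acute phase, at 13.9 and 8.72. These 2 of 23 stand beside 0.967% of all genes, and Lcn2 is also on the list of reactive astrocyte markers. Cebpd no longer passed with 4 units added, and Lcn2 does not average 5 units. None was 1.5-fold higher. Klf9, a glucocorticoid receptor target with the highest level of the list, was near equal at 29.7 and 30.3.

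Genes of the STAT3 and interleukin 6 response were lower in 2VO by their median. Of 14 genes 8 reached a mean of 1 unit, 3 were at least 1.5-fold lower and 1 higher, beside 0.967% and 1.51% of all genes, and the median log2 ratio was -0.25. With 4 units added Gfap alone passed 1.5-fold. Over the 5 genes that averaged 5 units or more it turned to 0.17. The lower members were Gfap as given above, Timp1, an inhibitor of matrix metalloproteinases, at 3.55 units in Sham and 1.39 in 2VO, and Serpina3n, a serine protease inhibitor, at 2.33 and 0.754. All of these are also on the list of reactive astrocyte markers. Fos, an immediate early gene, was the higher member at 4.03 and 6.86. Of 5 genes for receptors and partners of metallothioneins, such as the lipoprotein receptor Lrp1, 4 reached a mean of 1 unit. None of them was 1.5-fold apart, which is near the share of 2.48% of all genes. Rab3a, a GTPase of synaptic vesicles that binds Mt3, was 232 units in Sham and 299 in 2VO, while Mt3 was lower in 2VO.

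**Figure D5:**
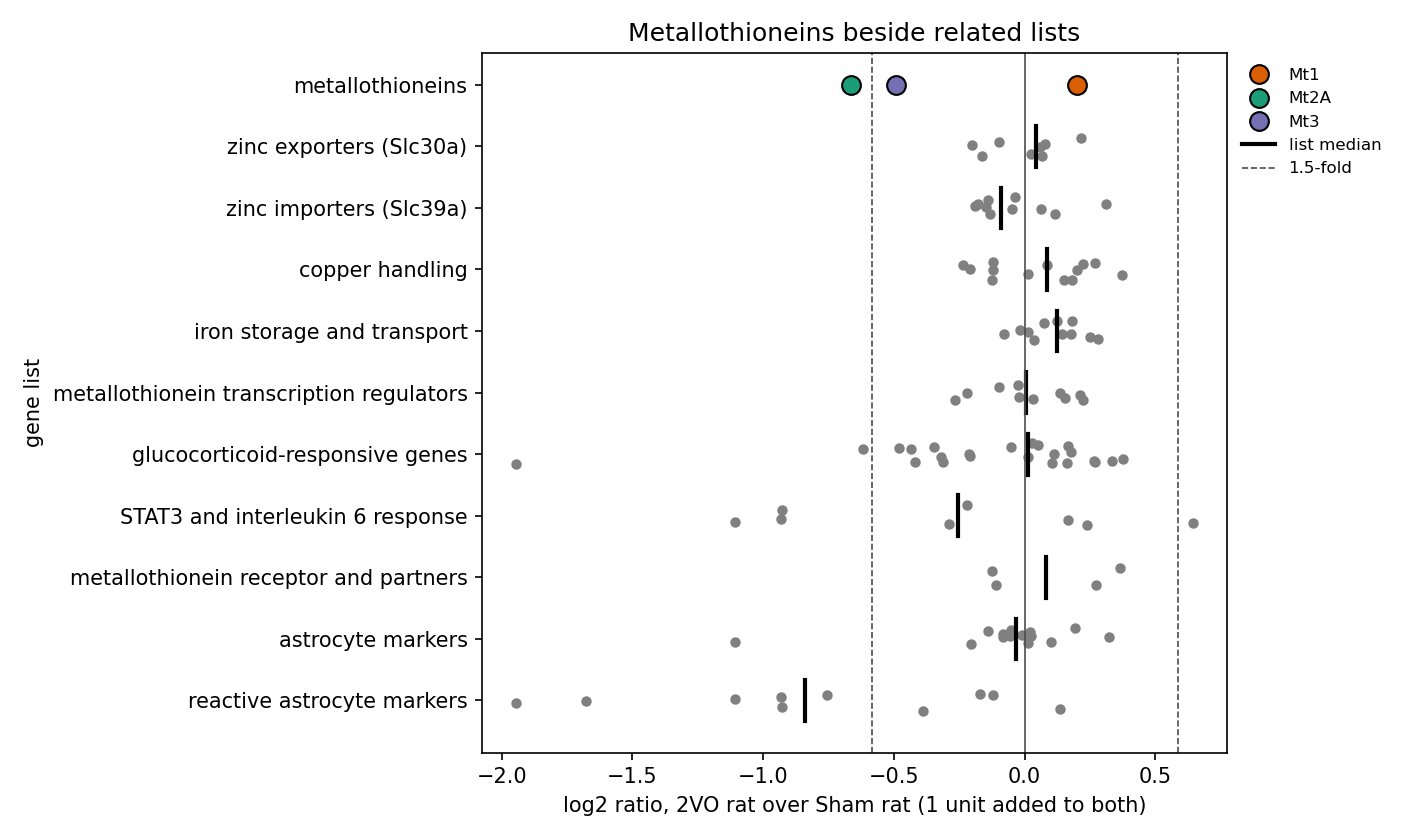
Log2 ratio, 2VO over Sham with 1 unit added, for the metallothioneins and for the measured members of 8 related gene lists and of the astrocyte and reactive astrocyte markers. Each small point is a gene, black bars are list medians and dashed lines mark 1.5-fold. The zinc, copper, iron and regulator genes lie between the dashed lines, Mt2A lies beyond the lower line and Mt3 just inside it.

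The mouse and the Sham rat differ in species, age, line and annotation, which cannot be told apart, so their levels and ratios are a description only. Over 11437 shared symbols that averaged 1 unit or more, Mt1 had a log2 ratio of mouse to Sham of 4.32, and its mouse level was 21.9 times that of Sham. Only 6 genes, itself included, had a ratio this high or higher. This contrast rests on the low Sham value of Mt1, which is uncertain because the counting of reads that fit several rat copies is not stated. Mt2 was 1.96 times the level of Mt2A, a log2 ratio of 0.96, and Mt3 was 2.80 times as high in Sham, a log2 ratio of -1.48. At least 2-fold higher in the mouse was 1 of 3 members, beside 6.54% of all genes, and at least 2-fold lower was 1, beside 11.3%. Over all genes the median log2 ratio was -0.12. Mt2 lay just short of 2-fold and passed it under each of 3 other scalings, at log2 ratios of 1.09 to 1.17. With the mouse and Sham scaled to equal sums over all but the 50 most abundant genes, the split past 2-fold went from 748 higher and 1296 lower to 1077 and 934. Against the 2VO rat, side by side, the mouse level of Mt1 was 18.8 times as high, that of Mt2 3.13 times, and that of Mt3 lower, with 2VO at 1.99 times the mouse.

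The metallothioneins were not nearest to each other in their pattern over the libraries. Likeness was the distance between log2 values, with 1 unit added and centred on each gene's mean, over the 3 libraries and 8292 shared genes that averaged 5 units or more. Nearest to Mt3 was Gng10, a G protein gamma subunit, at a distance of 0.017, and its level was 82.2 units in Sham, 59.0 in 2VO and 29.2 in the mouse. Vav3 and Vav2 followed at 0.031 and 0.040. Vav3 was at 9.46 units in Sham, 6.57 in 2VO and 2.70 in the mouse, and Vav2 at 7.95, 5.50 and 2.15. Both passed the filter through the rats alone. The added unit weighs on such low values, so these 2 distances say little of likeness to Mt3. Nearest to Mt2A were Npy, the neuropeptide Y gene, at 0.17, Creg2 at 0.18 and Faxc at 0.19. Npy stood at 19.9 units in Sham, 14.5 in 2VO and 41.9 in the mouse. Faxc passed the filter through the mouse alone, at 4.37 units in Sham, 3.09 in 2VO and 10.9 in the mouse. Nearest to Mt1 were Spink8 at 0.14, Ier3ip1 at 0.17 and Pttg1 at 0.31, which were at 18.1 to 20.6 units in the mouse and under 1 unit in both rats. They passed the filter through the mouse alone, and the added unit sets their rat values, so these distances say little of likeness to Mt1. The distance was 2.07 between Mt2A and Mt3, 2.46 between Mt1 and Mt2A and 4.48 between Mt1 and Mt3. With 3 libraries, of which 2 are rats, this measure mostly follows the gap between the mouse and the rats.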

How the data were processed

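Total RNA of hippocampus was taken with TRIzol and made into TruSeq v2 libraries, per the labels' protocols. Per the submitters' processing notes, which state no roles, the tools were fastp 0.21.0, HISAT2 2.1.0 and DESeq2, with mRatBN7.2 and GRCm39 as builds. The authors deposited, per library, a single column of normalized signal, never negative. Its unit, quantifier and annotation are not stated in the labels or file headers.

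The values were used as deposited. Ratios of 2VO to Sham were taken as log2 with 1 unit added, over genes that averaged 1 unit or more, and called at 1.5-fold. The mouse and Sham tables were joined by symbol, ignoring case, with Mt2 set beside Mt2A, and called at 2-fold. With 1 library per group no test was run. The design had foreseen counting intervals for count tables, which were not used. The calculation was tested on simulated data with planted changes well beyond 1.5-fold and less spread across genes than in the rats. That check says nothing of calls near 1.5-fold. Alternatives were 3 scalings, 0.25 or 4 units added, no filter and a filter at 5 units.

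The members and lists were chosen with earlier results of these data known. By the rule for named genes, each of 8 lists gave its most abundant member in Sham and up to 4 members past 1.5-fold, or the furthest one, besides 5 metal genes named in the rule. Marker examples such as Aldoc and Slc1a2, and the gene neighbours, were named after their values were seen. Promoters are RefSeq's for GRCr8 and coding sequences GENCODE M21's. Python 3.11.15, pandas 2.3.3, numpy 2.4.6, Biopython 1.88 and matplotlib 3.10.9 were used.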

Additional observations from a re-analysis of the deposited data

How the results depend on the processing

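Under 7 alternatives the log2 ratio of 2VO to Sham ran from -0.72 to -0.63 for Mt2A, from -0.55 to -0.49 for Mt3 and from 0.15 to 0.22 for Mt1, and in each of them Mt2A alone was past 1.5-fold. For mouse over Sham it ran from 3.98 to 4.53 for Mt1, from 0.93 to 1.17 for Mt2 and from -1.48 to -1.27 for Mt3. Of 56 list medians under alternatives 1 moved by more than the SD of 0.24 across genes: the STAT3 and interleukin 6 median was 0.17 over the 5 genes that averaged 5 units or more, where fewer genes enter. Added after seeing the data, the same alternatives for the reactive astrocyte markers gave medians from -1.11 to -0.37 and 1 to 6 lower genes. The medians of the zinc exporters, the regulators and the glucocorticoid genes are close to 0 and changed sign in 1, 4 and 5 of the 7. Calls over all rat genes numbered 342 higher and 215 lower with 0.25 units added, and 70 and 50 with 4 units added. For mouse over Sham 4 units added gave 288 and 645. Calls numbered 97 higher and 59 lower for the rats, and 426 and 860 for mouse over Sham, with the filter at 5 units. No paired analysis was possible because each group holds 1 library. No alternative replaces a replicate, and the unknown depth leaves the error of each level unknown.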

Other observations

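In RefSeq's order of protein-coding genes for the rat assembly GRCr8, Mt1, Mt2A, Mt3 and Mt4 follow each other between Nup93 and Bbs2. Nup93, a component of the nuclear pore, was 4.44 units in Sham, 4.48 in 2VO and 6.18 in the mouse. Bbs2, a subunit of a complex that carries cargo to cilia, was 10.1 in Sham, 10.9 in 2VO and 8.67 in the mouse. Ogfod1, the next protein-coding gene, was 14.8, 17.8 and 25.0. The log2 ratios of 2VO to Sham were 0.01, 0.09 and 0.25, beside 0.20 for Mt1, -0.67 for Mt2A and -0.49 for Mt3 in the cluster.

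Mt4, a form known from stratified epithelia, was low in each library, at 0.206 units in Sham and 0.521 in 2VO, and it was listed at 0 in the mouse. The pseudogene Mt1m was 0.917 in Sham and 0.992 in 2VO.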
